A study of Mus musculus with 20 samples.

Results

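The Notch ligands Jag1, Jag2, Dll1 and Dll4, the receptors Notch1, Notch2, Notch3 and Notch4, and the target genes Hey1 and Hes1 were followed through colorectal liver metastases (CRLM) of the mouse. They were taken by gene name, and these 10 genes were found once each among the 54532 genes of the count tables. Bulk RNA-seq covered 14 tissue libraries and 6 libraries of sorted cells. All mice were wild-type (WT). For CRLM, 1000000 MC38 cells, of a C57BL/6 colon adenocarcinoma, were injected, and the study's methods name the spleen as the site. Normal liver (con, 2 libraries, day 0) came from mice given normal saline, and L-con (1 library, day 12) was tumor-free liver of a tumor-bearing mouse. Low tumor content (Lt, day 9) and medium content (Mt3 at day 9, Mt2 and Mt1 at day 11) had 2 libraries each, and high content (Ht, day 12) had 3. F4/80+ and CD11b+ cells were taken with microbeads from medium-sized CRLM (Mt2) at day 11, in 3 libraries each. The tissue samples mix tumor cells, liver cells and host stroma, and the bead selections are enriched rather than pure. The study's methods describe a pair of livers for each tissue group except L-con. For the sorted cells nothing says that the libraries came from separate animals, so p-values that rest on them measure the spread between these samples, which may be technical.

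Notch signaling passes between touching cells. A ligand on the sending cell is taken up after it binds a Notch receptor on the receiving cell, the receptor is cut by ADAM proteases and then by gamma-secretase, and its inner part enters the nucleus and joins the DNA-binding protein Rbpj to switch on genes such as the repressors Hes1 and Hey1. In growing vessels Dll4 marks sprouting tip cells and restrains their neighbours, while Jag1 can counter it, and Notch3 is the receptor of mural cells. In the liver, Jag1 and Notch2 are known for bile duct formation.

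The libraries held 16032085 to 20548370 counts, so that 3 counts corresponded to 0.146 to 0.187 CPM (counts per 1000000 counts of the library) before scaling. Levels below are CPM after TMM scaling (trimmed mean of M-values, which evens out libraries in which a few genes take much of the reads) over all 20 libraries. The scaling factors ran from 0.650 in con to 1.51 in Ht, and changes in the tissue series are therefore changes relative to the bulk of genes. Ht replicates 1 and 3, which the study's methods describe as made identical, were counted as 1 sample, although their counts differed no less from each other (chi-square per degree of freedom of 27.6) than those of replicates 2 and 3 (12.1). CD11b+ replicate 3 stood apart: its chi-square per degree of freedom against replicates 1 and 2 was 136 and 178, compared with 17.3 between those, and its summed neutrophil markers reached 3530 CPM compared with 970 to 1047. Results that rest on it are given with and without it. The tissue and the sorted cells also differed in sex-linked transcripts, with 5547 to 21805 Xist and no Ddx3y counts in the sorted libraries and 0 to 3 Xist and 348 to 1421 Ddx3y counts in the tissue. The labels give male for the tissue and no sex for the sorted cells, whereas the study's methods speak of female mice. Sex, table and kind of sample cannot be told apart between the tissue and the sorted cells. The labelled cell types carried their markers: all 8 macrophage markers were counted in both selections, with summed levels of 12540 to 13538 CPM in F4/80+ and 10683 to 16539 CPM in CD11b+ cells, against 413 to 1935 CPM in tissue.

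Per kilobase of gene length, Notch2 and Hes1 led the 10 genes in normal liver, at 7.24 and 6.36 CPM per kb. Notch1 (3.65) and Dll4 (3.64) followed, and Jag2 was last at 0.11 CPM per kb. Dll4 was thus the leading ligand of con, with Jag1 at 1.77 and Dll1 at 1.12 CPM per kb. In Ht the order of the ligands was another, with Jag1 at 4.08, Dll4 at 1.47, Dll1 at 0.98 and Jag2 at 0.76 CPM per kb. In F4/80+ cells Notch2 (22.6 CPM per kb) and Notch1 (8.13) stood above Hes1 (6.28), and Jag1 (2.20) was again the highest ligand.

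Jag1 (ENSMUSG00000027276, minus strand of chr2:137081456-137116644 in GRCm38) encodes a ligand of the Jagged family. Its level was 10.1 and 10.6 CPM in con, 7.15 CPM in the L-con library and 11.8 and 10.2 CPM in Lt. At medium tumor content the Mt3 libraries gave 16.6 and 11.6 CPM, those of Mt2 17.6 and 21.3 CPM and those of Mt1 17.8 and 23.8 CPM. The Ht libraries reached 20.9, 23.3 and 27.6 CPM. Every Ht library lay above every con and Lt library, and the Mt1 and Ht libraries overlapped. Jag2 (ENSMUSG00000002799, minus strand of chr12:112907819-112929776), the other Jagged ligand, gave 1.40 and 0.18 CPM in con, which are 15 and 2 counts. L-con had 0.71 CPM, the Lt libraries 1.75 and 2.11 CPM, and those of Mt3 1.79 and 1.27 CPM. Mt2 had 1.93 and 3.11 CPM, Mt1 1.36 and 4.73 CPM, and Ht 6.28, 4.86 and 5.06 CPM. All 3 Ht libraries were higher than all other tissue libraries, but the gap between the Mt1 libraries was wider than the step from the Mt1 mean to the Ht mean.

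Dll4 (ENSMUSG00000027314, plus strand of chr2:119325784-119335962), the Delta-like ligand of vessel sprouts, went the other way. Con measured 16.4 and 11.7 CPM, L-con 8.29 CPM, and Lt 8.62 and 10.6 CPM. With more tumor, Dll4 was 7.96 and 9.69 CPM (Mt3), 7.05 and 6.26 CPM (Mt2) and 7.81 and 7.08 CPM (Mt1), and it was 5.46, 5.38 and 6.35 CPM in the Ht libraries. Both con libraries stood above all others, and L-con, taken away from the tumors, lay within the range of Mt3. Dll1 (ENSMUSG00000014773, minus strand of chr17:15367354-15376872), a Delta-like ligand that also serves in blood cell fate, showed no such course. It ranged from 3.34 to 6.22 CPM over the 14 tissue libraries, with 3.37 and 6.08 CPM in con alone and 3.85 to 4.66 CPM in Ht.

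**Figure D1:**
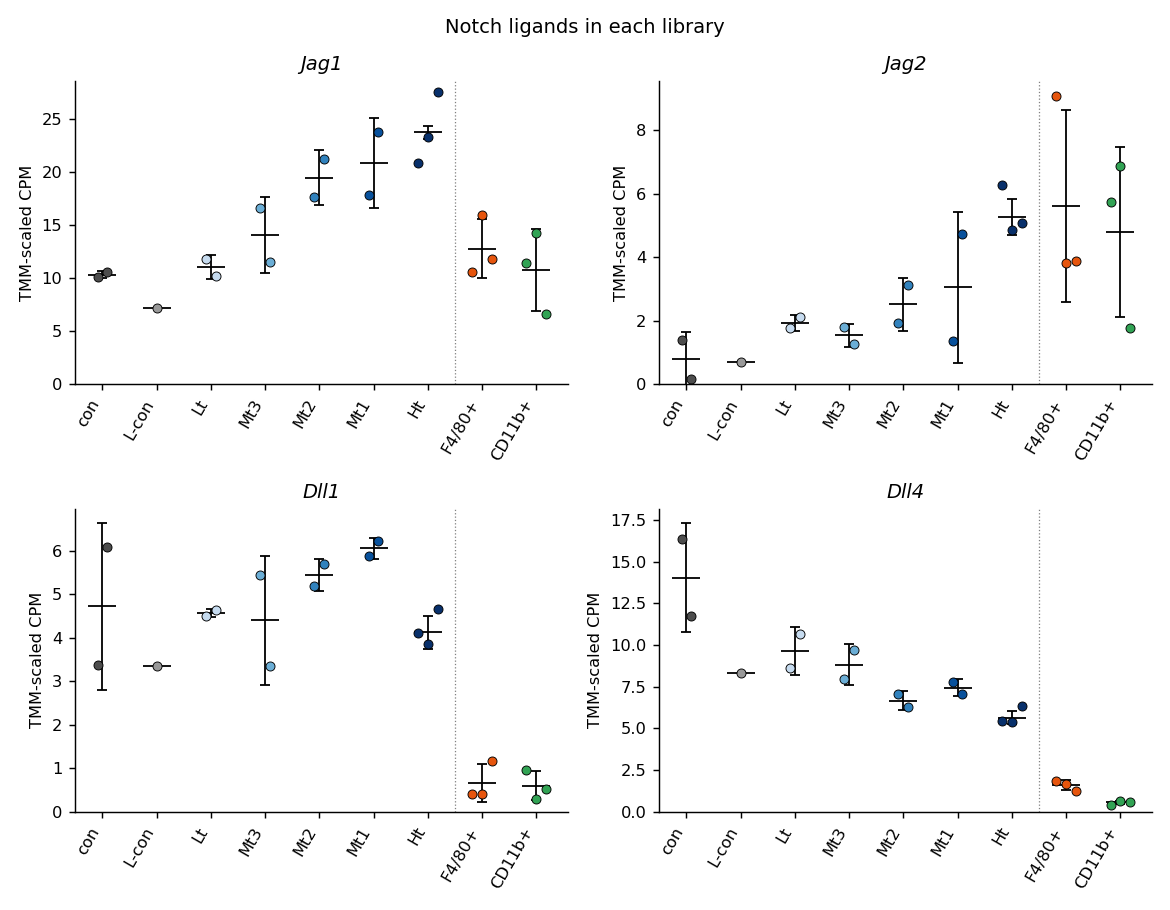
Levels of the 4 ligands in the 20 libraries (y axis, TMM-scaled CPM) by group (x axis). Points are libraries, horizontal bars are means and whiskers SD over samples (Ht replicates 1 and 3 averaged to 1 sample, L-con a single library, whiskers cut at 0). Jag1 and Jag2 are highest in Ht among the tissues, Dll4 is highest in con at 14.04 CPM on average, and Dll1 and Dll4 are lowest in the sorted cells.

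The stretches before the annotated starts of Dll4 and Jag1, the ligands with opposite courses, are shown because they let the letters of 2 known motifs be read in place. The sequences are RefSeq promoters of GRCm38.p6, which held 8 of the 10 genes, and are cut where GENCODE M21 begins an exon of a protein-coding gene (exons of the noncoding Gm14207 overlap that of Dll4). Capitals mark CACGCG on either strand, letters to which Hes and Hey repressors are known to bind.
Dll4, chr2:119325534-119325783, plus strand: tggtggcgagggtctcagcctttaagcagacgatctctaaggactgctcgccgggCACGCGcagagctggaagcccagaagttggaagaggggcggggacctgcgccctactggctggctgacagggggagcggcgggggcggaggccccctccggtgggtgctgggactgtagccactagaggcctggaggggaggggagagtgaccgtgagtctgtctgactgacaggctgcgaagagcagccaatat
Jag1, chr2:137116645-137116770, minus strand: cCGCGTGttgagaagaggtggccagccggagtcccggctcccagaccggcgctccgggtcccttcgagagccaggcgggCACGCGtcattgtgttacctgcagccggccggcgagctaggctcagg
CACGCG occurred once in the Dll4 stretch and 2 times, once per strand, in that of Jag1. In the 250 bases before the start, it was also found for Dll1 and Notch2, and 7.62% of all 32851 promoters held it. GTGGGAA, letters of the Rbpj motif, occurred in none of the 8 windows on either strand and in 5.42% of all promoters, and the motifs do not overlap. A match is a description of letters only.

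Of the receptors, Notch2 (ENSMUSG00000027878, plus strand of chr3:98013527-98150361) was the most abundant, with 79.1 and 77.0 CPM in con, 74.8 CPM in L-con and 69.5 and 77.4 CPM in Lt. It was at 91.4 and 66.1 CPM (Mt3), 86.1 and 86.8 CPM (Mt2) and 96.7 and 99.5 CPM (Mt1) at medium content and at 92.4, 104 and 104 CPM in Ht. All Ht libraries were above both con libraries, and the step between the group means was smaller than the gap between the Mt3 libraries. Notch1 (ENSMUSG00000026923, minus strand of chr2:26457903-26516663), the receptor of T cell and arterial fate, measured 55.6 and 48.2 CPM in con and 29.4 CPM in L-con. The Lt libraries had 37.6 and 34.7 CPM, those of Mt3 53.6 and 36.7 CPM and those of Mt2 38.4 and 32.5 CPM. Mt1 followed with 47.5 and 44.0 CPM and Ht with 34.6, 39.0 and 43.7 CPM. Con was higher than Lt and Ht in every library, whereas 1 Mt3 library reached the con range.

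Notch3 (ENSMUSG00000038146, minus strand of chr17:32120820-32166880) stayed between 4.12 and 9.78 CPM in the tissue, and its highest and lowest libraries were both of medium tumor content, from Mt1 and Mt2. Notch4 (ENSMUSG00000015468, plus strand of chr17:34564268-34588503), a receptor of endothelial cells, stayed between 9.03 and 15.2 CPM. Its con (15.2 and 12.3 CPM) and Ht libraries (11.9, 14.4 and 14.3 CPM) overlapped. In the sorted cells the 4 receptors parted. Notch2 reached 239, 258 and 234 CPM in F4/80+ and 252, 284 and 127 CPM in CD11b+ cells, and Notch1 127, 111 and 109 CPM and 131, 142 and 26.8 CPM. Notch4 gave 16.6, 18.1 and 16.9 CPM in F4/80+ and 14.1, 17.5 and 5.57 CPM in CD11b+ cells. The lowest sorted-cell value of each of these receptors came from CD11b+ replicate 3. Notch3 was at 4, 0 and 5 counts in F4/80+ and 2, 11 and 5 counts in CD11b+ libraries, with the library at 0 allowing up to 0.164 CPM before scaling. That interval, like all floors given here, covers counting error only.

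**Figure D2:**
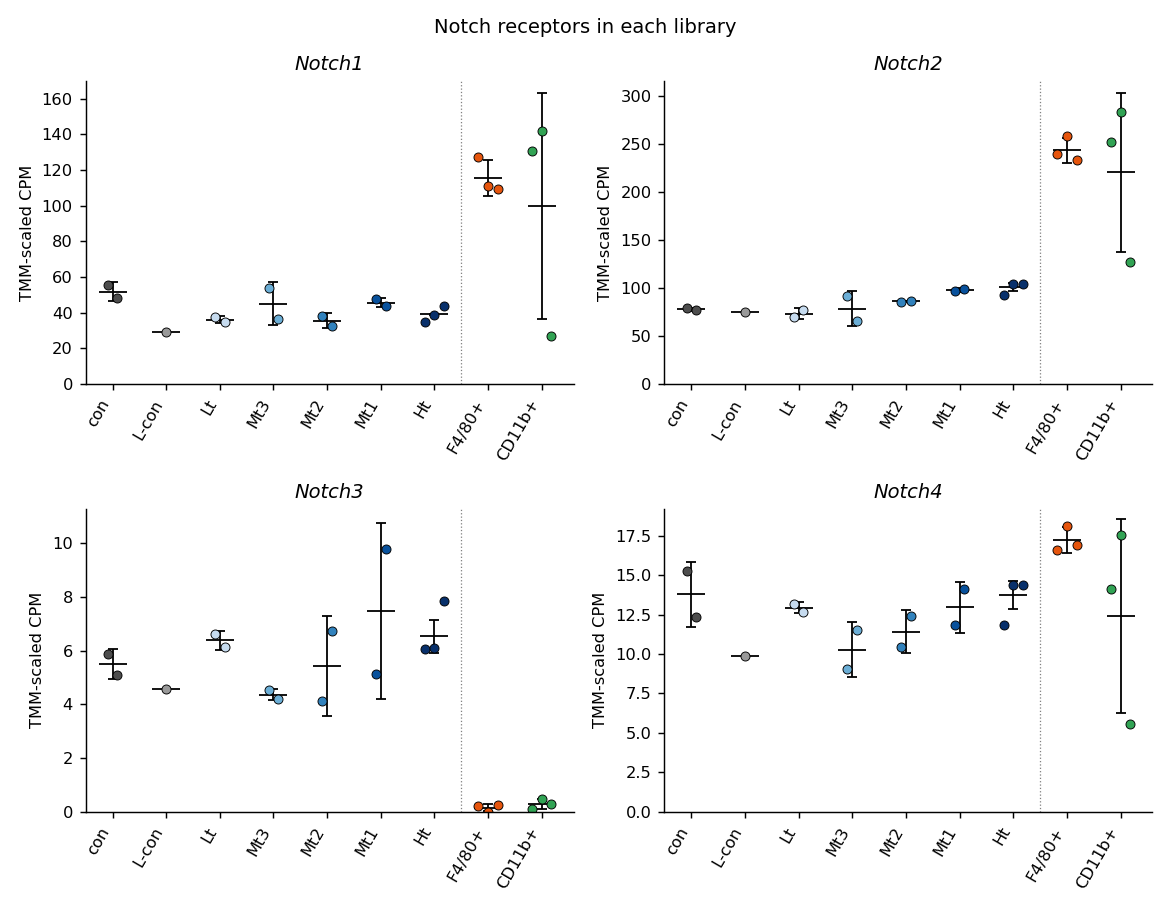
Levels of the 4 receptors (y axis, TMM-scaled CPM) by group, drawn as for the ligands. Notch1 and Notch2 are above all tissue libraries in every F4/80+ library, the third CD11b+ library is low for Notch1 (26.8 CPM) and Notch2 (127 CPM), and Notch3 is near 0 in all sorted libraries.

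Hes1 (ENSMUSG00000022528, plus strand of chr16:30064384-30067796), the repressor that many Notch signals switch on, measured 12.5 and 13.4 CPM in con and 13.4 CPM in L-con. It stood at 19.2 and 16.2 CPM (Lt), 16.4 and 17.1 CPM (Mt3), 18.2 and 14.6 CPM (Mt2) and 25.5 and 16.1 CPM (Mt1), and at 14.4, 18.5 and 20.03 CPM in Ht. Every CRLM library was above con and L-con, by a margin that did not pass the test described below. Hey1 (ENSMUSG00000040289, minus strand of chr3:8663359-8667256), a repressor induced by Notch in vessels, was scarce, at 0.44 to 2.74 CPM in the tissue. Its con libraries, at 23 and 5 counts, spanned most of that range. In sorted cells Hes1 was 17.8, 9.29 and 11.3 CPM in F4/80+ and 6.60, 5.45 and 10.4 CPM in CD11b+ libraries, and Hey1 was 4.08, 1.86 and 0.96 CPM against 0.53, 0.26 and 0.18 CPM. The Hey1 levels of both selections did not overlap, and those of Hes1 did.

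A ratio of 2 genes within a library does not depend on its scaling. Per kilobase, Jag1 over Dll4 was 0.41 and 0.60 in the con libraries and 0.57 in L-con. Lt had ratios of 0.91 and 0.64, Mt3 of 1.38 and 0.79, Mt2 of 1.65 and 2.25, Mt1 of 1.51 and 2.23, and Ht of 2.53, 2.86 and 2.87. Jag1 was thus below Dll4 in the normal and tumor-free liver and in Lt, and above it in all Mt2, Mt1 and Ht libraries. The ratio was chosen after values were seen and is given without a test. It reached 3.78, 6.35 and 6.21 in F4/80+ and 17.3, 14.5 and 7.34 in CD11b+ cells. Notch2 over Notch1 per kilobase had another course. The con libraries were at 1.88 and 2.11 and those of Ht at 3.53, 3.52 and 3.14, but the tumor-free L-con library, at 3.36, lay within the range of Ht. The libraries between ranged from 2.25 and 2.38 in Mt3 to 2.96 and 3.52 in Mt2.

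**Figure D3:**
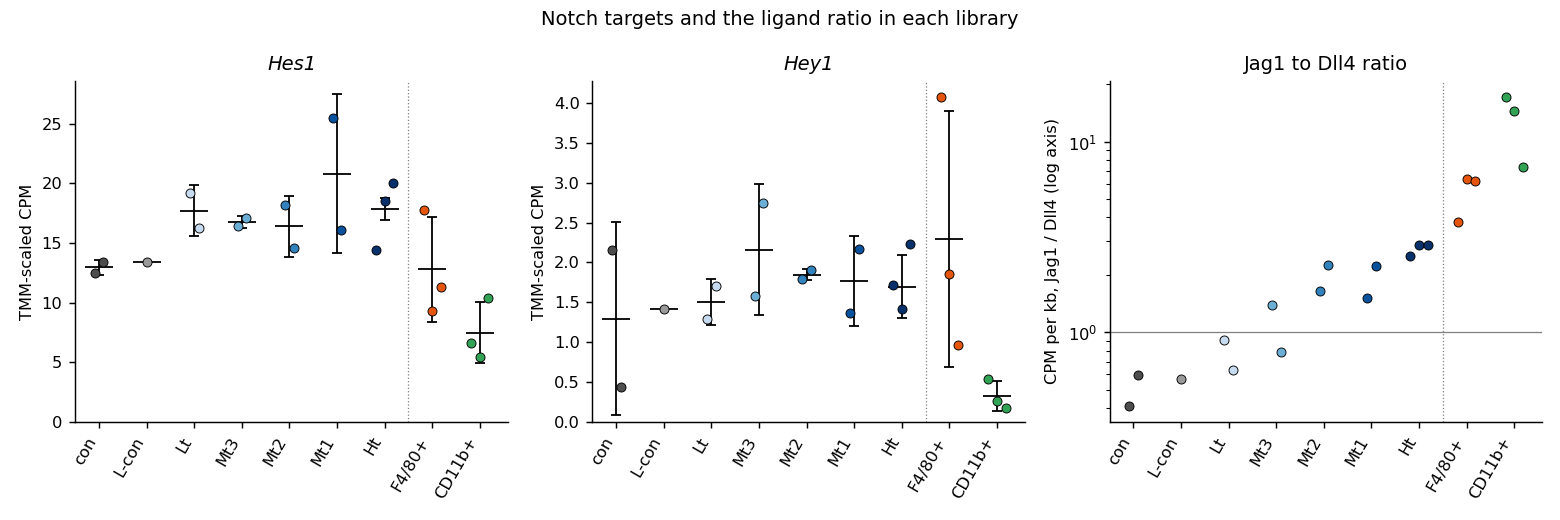
Hes1 and Hey1 levels (y axis, TMM-scaled CPM, drawn as for the ligands) and the ratio of Jag1 to Dll4 in CPM per kb (log axis, the line marks 1) in each library by group. The ratio is under 1 in con, L-con and Lt and 2.53 to 2.87 in Ht, and Hey1 is higher in every F4/80+ than in every CD11b+ library.

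The first comparison asks what changes when small metastases appear, from con to Lt. None of the 10 Notch genes passed the study's threshold (adjusted p no higher than 0.05 and a change of 2-fold or more) in edgeR's quasi-likelihood test, and DESeq2 called 0 as well. Over all 17187 genes tested, 12.7% passed, 12.4% higher and 0.256% lower. Dll4 (log2 fold change -0.54, SE 0.24, edgeR adjusted p = 0.17) and Notch1 (-0.52, SE 0.19, adjusted p = 0.11) had the lowest unadjusted p of the 10. With single libraries left out, Dll4 ranged from -0.78 to -0.29 and Notch1 from -0.64 to -0.42. Jag2 differed by 1.30 on the log2 scale with an SE of 0.81, and by 0.45 without con replicate 2 and 3.41 without con replicate 1, so that its size rested on single con libraries. Both Lt libraries were above both con libraries, and the change did not pass the test (edgeR adjusted p = 0.318).

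From con to Ht, normal liver against the largest metastases, 3 of the 10 genes passed, 2 higher and 1 lower, where 49.9% of all genes passed, 25.8% higher and 24.1% lower. Jag1 rose by 1.19 on the log2 scale (SE 0.22, edgeR adjusted p = 0.00148). Jag2 rose by 2.72 (SE 0.79, adjusted p = 0.0133), and Dll4 fell by 1.33 (SE 0.24, adjusted p = 0.00115). These 3 are ligands, and no receptor or target passed. Notch1 (-0.42, adjusted p = 0.0747), Notch2 (0.36, adjusted p = 0.0935) and Hes1 (0.45, adjusted p = 0.113) missed the threshold on both criteria. In bulk tissue, fewer cells of a type and less RNA per cell cannot be told apart. Without con replicate 2, the library with 2 Jag2 counts, Jag2 was at 1.88 with an adjusted p of 0.0688 and lost its call. Without con replicate 1, Jag2 was at 4.84 (adjusted p = 0.0057) and Hey1 was called at 1.93 (adjusted p = 0.0365). With total counts in place of TMM, 64.4% of all genes were called (51.3% higher and 13.1% lower) and their median moved from 0.09 to 1.28. Dll4 was at -0.14 and was no longer called, and Notch2, Notch3, Notch4 and Hes1 were called higher at 1.17 to 1.64. Relative to the median of all genes, Dll4 was at -1.42 with TMM and -1.41 with total counts, and Jag1 at 1.09 and 1.10.

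From medium to high tumor content (Mt to Ht), the mean of Mt3, Mt2 and Mt1 against Ht, no Notch gene passed in edgeR or DESeq2, compared with 14.9% of all genes (1.50% higher and 13.4% lower). Jag2 (1.20, SE 0.52, edgeR adjusted p = 0.117) and Jag1 (0.41, SE 0.17, adjusted p = 0.107) had the lowest unadjusted p of the Notch genes, and Dll4 was at -0.42 (SE 0.20, adjusted p = 0.134). Jag2 was called with no filter on low counts, with total counts, with Ht as 3 libraries (adjusted p = 0.0479) and without Mt1 replicate 2 (1.59, adjusted p = 0.0446). Hes1 was at 0.0003 on the log2 scale, with an SE of 0.18.

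**Figure D4:**
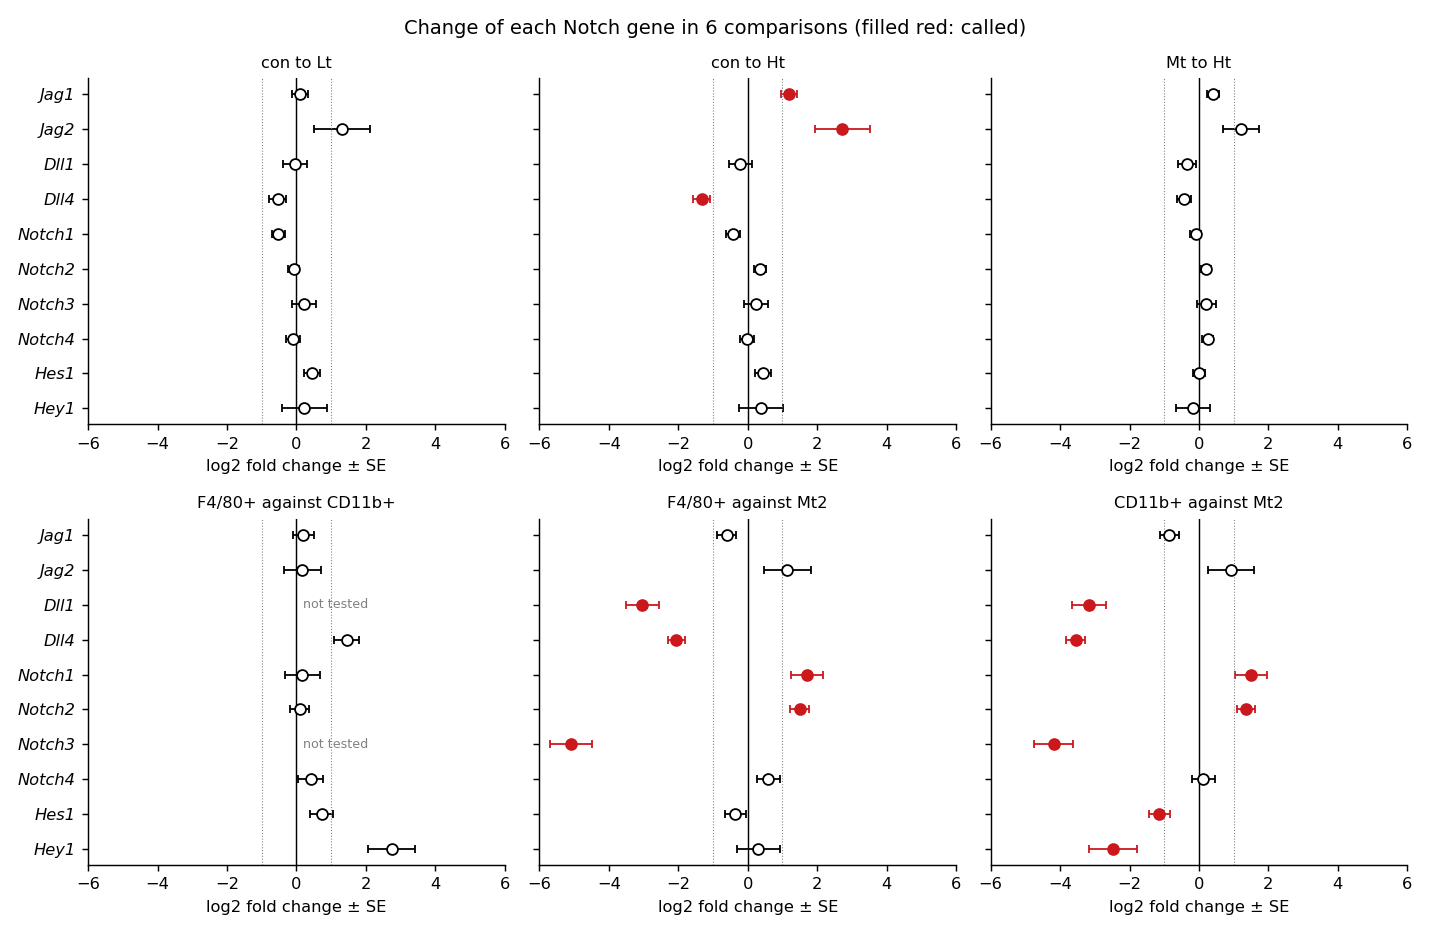
Log2 fold change (x axis, bars are SE) of the 10 genes (y axis) in 6 comparisons, from edgeR. Filled red points passed the threshold, and dotted lines mark a 2-fold change. From con to Ht only the ligands Jag1, Jag2 and Dll4 passed with TMM scaling (Dll4 was at -0.14 and not called with total counts), and in both sorted populations Notch1 and Notch2 were higher and Dll1, Dll4 and Notch3 lower than in Mt2. For Notch1, CD11b+ replicate 3 (26.8 CPM) lay below both Mt2 libraries (38.4 and 32.5 CPM), and CD11b+ against Mt2 was not called with only the groups compared.

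Markers of other cell types moved with these ligands along the tissue series. The summed level of the 9 hepatocyte markers found was 180257 to 204431 CPM in con and 3196 to 5174 CPM in Ht. Within Mt2 it was 103259 and 25654 CPM, and within Mt1 96996 and 25146 CPM, and in both groups the library with fewer hepatocyte transcripts had the higher Jag1 and Jag2. Mt3 went the other way for both genes, and Lt and Ht did so for Jag1 only. In Mt3 the library with fewer of them (104277 against 137790 CPM) had the lower Jag1 and Jag2, in Lt (94072 against 170667 CPM) it had the lower Jag1 and the higher Jag2, and in Ht the library with the fewest had the lowest Jag1 and the highest Jag2. The 5 fibroblast markers summed to 254.5 to 348.4 CPM in con and 6192 to 7838 CPM in Ht, and the 12 endothelial markers to 357 to 431 CPM and 212 to 257 CPM. The 8 macrophage markers summed to 413 to 632 CPM in con, 870 CPM in L-con and 1499 to 1935 CPM in Ht. From con to Ht 6 of them were called higher and 1 lower, where 25.8% of all genes rose and 24.1% fell. The CPM of Dll4, which is not in the endothelial list, equalled 3.80% and 3.28% of the endothelial sum in con and 2.57%, 2.22% and 2.47% in Ht. Relative to that sum, Dll4 was at 2.10% in the tumor-free L-con library, below every Ht library, and at 2.34% and 3.12% in Lt. Jag1, also outside the list, equalled 2.34% and 2.96% of that sum in con and 9.82%, 9.59% and 10.7% in Ht. From con to Ht, 3 of the 12 endothelial markers fell and none rose, with a median of -0.53 on the log2 scale, and the 6 sinusoidal ones had 5 that fell. The endothelial count was near the 24.1% of all genes that fell, and the sinusoidal count was above it. None of these lists had a marker at 0 in all libraries of con or Ht. The part of these cell types in the ligand changes was not tested.

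**Figure D5:**
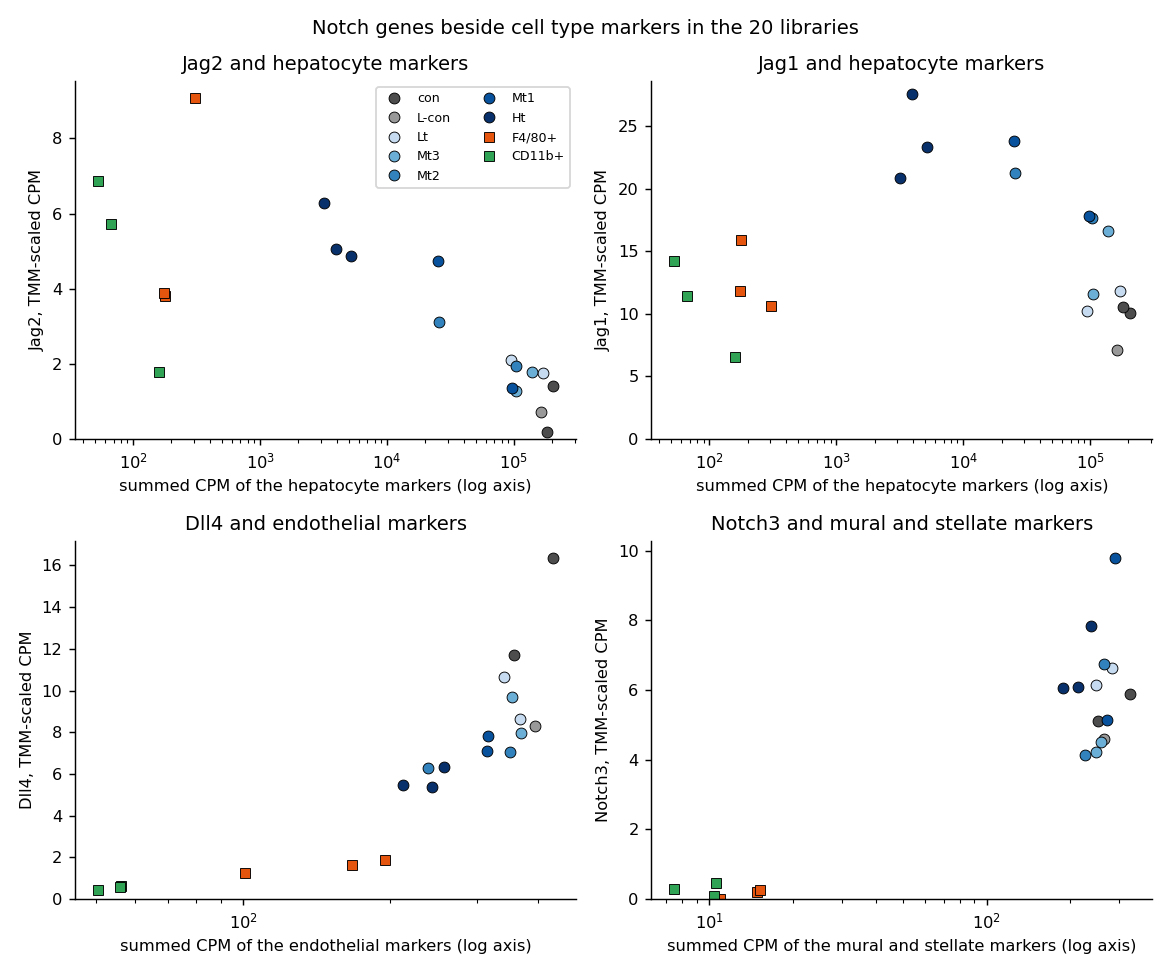
Jag2 and Jag1 beside hepatocyte markers, Dll4 beside endothelial markers and Notch3 beside mural and stellate markers in the 20 libraries (x axes, summed marker CPM on a log axis, y axes, TMM-scaled CPM, circles tissue and squares sorted cells). Ht libraries combine the lowest hepatocyte sums of the tissue with the highest Jag2, and sorted cells have little of either mural markers or Notch3. Con libraries have the highest Dll4, at endothelial sums of 431 and 357 CPM. L-con, with a sum of 394 CPM between these, has a Dll4 of 8.29 CPM.

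Between the sorted populations, F4/80+ against CD11b+, edgeR called none of the 8 Notch genes that passed the filter on low counts, and 0.0771% of the 14263 genes tested were called at all, 0.00701% higher and 0.0701% lower in F4/80+ cells. Dll1 and Notch3 did not pass the filter. Hey1 (log2 fold change 2.74, SE 0.66, edgeR adjusted p = 0.201) and Dll4 (1.45, SE 0.37, adjusted p = 0.232) had the lowest unadjusted p of the 8. Both were higher in 3 of 3 F4/80+ libraries than in all CD11b+ libraries, and how many of all genes part in this way was not counted. Dll4 rested on 36, 33 and 25 counts in F4/80+ and 9, 15 and 10 counts in CD11b+ libraries. DESeq2 called 1, Hey1, at 2.76 (adjusted p = 0.0065), where it called 2.10% of all genes, 0.932% higher. EdgeR without the filter called Hey1 too (adjusted p = 0.0302), along with 0.939% of all genes, 0.349% higher. In a fit of all 19 samples, which share an estimate of the spread, Dll4 was called at 1.496 (SE 0.27, adjusted p = 0.0144) and Hey1 was not (adjusted p = 0.0584), and 0.918% of all genes were called, 0.516% higher. Without CD11b+ replicate 3 Hey1 was at 2.49 and Dll4 at 1.49, again not called, while Jag1, Jag2, Notch1 and Notch2 changed sign, to between -0.28 and -0.05. The endothelial markers moved alongside Hey1 and Dll4. Their sum was 101 to 195 CPM in F4/80+ and 50.4 to 56.3 CPM in CD11b+ cells, and the 11 tested had a median of 1.56 with 0 called. Set against that sum, which holds neither gene, Dll4 was at 0.95% to 1.25% in F4/80+ and 0.87% to 1.15% in CD11b+ libraries, and Hey1 at 0.95% to 2.09% and 0.32% to 1.06%. The part of endothelial transcripts in both differences was not tested. Other lists parted the selections as well. The 4 Kupffer markers summed to 567 to 2316 CPM in F4/80+ and 37.1 to 102 CPM in CD11b+ cells, the 6 sinusoidal markers to 775 to 1023 and 606 to 756 CPM, and the 5 neutrophil markers to 157 to 436 and 970 to 3530 CPM, while the cholangiocyte markers summed to at most 5.57 CPM. The sinusoidal sums do not speak for the whole list. Against Mt2, 1 of the 6 was higher and 2 lower in F4/80+ cells (median -0.61), where 17.2% of all genes were higher and 25.2% lower. In CD11b+ cells 1 was higher and 4 lower (median -2.60), where 17.6% of all genes were higher and 26.3% lower.

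Mt2 is the tissue that the study names as the source of the sorted cells, but the Xist and Ddx3y counts above set these cells apart from the Mt2 libraries compared here. Against Mt2, F4/80+ cells had 5 of 10 Notch genes called, 2 higher and 3 lower, where 42.3% of the 18407 genes tested were called, 17.2% higher and 25.2% lower. Notch1 was higher by 1.71 (SE 0.47, edgeR adjusted p = 0.00685) and Notch2 by 1.49 (SE 0.27, adjusted p = 3.35e-04). Lower were Dll4 at -2.06 (SE 0.25), Dll1 at -3.04 (SE 0.47) and Notch3 at -5.10 (SE 0.60), with edgeR adjusted p-values of 8.81e-05 or less. Jag1 (-0.61, adjusted p = 0.0806) and Jag2 (1.14, adjusted p = 0.169) were not called, although Jag2 was with no filter on low counts (1.15, adjusted p = 0.027). With single libraries left out, Jag2 ranged from 0.60 to 1.57. Not called either were Notch4, Hes1 and Hey1.

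CD11b+ cells had 7 of 10 called against Mt2, 2 higher and 5 lower, where 43.9% of all genes were called, 17.6% higher and 26.3% lower. Notch1 was higher by 1.49 (SE 0.46, edgeR adjusted p = 0.0136) and Notch2 by 1.35 (SE 0.27, adjusted p = 6.79e-04). Dll4 was lower at -3.55 (SE 0.27), Dll1 at -3.17 (SE 0.48) and Notch3 at -4.18 (SE 0.55), with edgeR adjusted p-values of 5.81e-05 or less. The targets were lower as well, Hey1 at -2.48 (SE 0.69, adjusted p = 0.00683) and Hes1 at -1.14 (SE 0.30, adjusted p = 0.00484). Without CD11b+ replicate 3 the count was 7 again, and Notch1 stood at 1.94 and Notch2 at 1.63. Notch1 was no longer called with only the 2 groups in the fit (adjusted p = 0.0947) or without Mt2 replicate 2 (adjusted p = 0.0741), and Hes1 fell under a 2-fold change without Mt2 replicate 1 (-0.97) or CD11b+ replicate 2 (-0.93). Both comparisons share the Mt2 libraries. The summed mural and stellate markers were 226 and 264 CPM in Mt2 and 7.47 to 15.2 CPM in the sorted cells, and Notch3 had 62 and 156 counts in Mt2 and at most 11 in a sorted library.

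The other genes of the pathway, a list of 46 with ligand-like proteins, ligand endocytosis, glycosylation, proteolysis, the nuclear complex, brakes and further targets, had 40 members tested in the tissue. From con to Lt 6 of the 40 rose and none fell, where 12.4% of all genes rose and 0.256% fell, and the median was 0.02 on the log2 scale over the list and 0.10 over all genes. The count was near that of all genes. The 6 were Rbpj, the DNA-binding partner of the receptors (1.17, SE 0.33, edgeR adjusted p = 0.0454), the glycosyltransferase Lfng (1.16, SE 0.32), the ubiquitin ligase Neurl1b (2.49, SE 0.35), the Deltex family member Dtx3 (2.10, SE 0.41), the Numb relative Numbl (2.87, SE 0.53) and the transcription factor Gata2 (2.30, SE 0.46). Without Lt replicate 2 or con replicate 2 the count was 1, and without con replicate 1 it was 3. Rbpj was 23.1 and 27.5 CPM in con, 40.9 and 72.9 CPM in Lt and 147 to 176 CPM in Ht.

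From con to Ht 15 of the 40 rose and 6 fell, where 25.8% of all genes rose and 24.1% fell, with a median of 0.51 against 0.09 over all genes. In all, 21 of the 40 were called, near the 49.9% of all genes. With total counts 28 were called higher and 4 lower, where 51.3% of all genes were higher and 13.1% lower. Numbl (4.68, SE 0.53), Gata2 (4.03, SE 0.47) and Neurl1b (3.28, SE 0.34) rose most besides Dner, a Notch-binding protein of 0 to 1 counts in con and 6 to 17 counts in Ht. Psen2, a catalytic part of gamma-secretase, fell by 3.88 on the log2 scale (SE 0.59) and Furin, the protease that matures Notch, by 2.53 (SE 0.40). The 2 others that fell most were Dtx1, with 12 and 25 counts in con and 1 to 2 in Ht, and Hey2, with 7 and 14 counts in con and 1 to 8 in Ht. From Mt to Ht, where 1.50% of all genes rose and 13.4% fell, 2 rose, Dner (2.96, SE 0.61) and Gata2 (1.04, SE 0.30), and 3 fell, Furin (-1.23, SE 0.33), Psen2 (-2.28, SE 0.50) and Dtx1 (-3.17, SE 0.77), and the median over the list was 0.24 against 0.00 over all genes. The count was 0 with either Ht sample left out, 3 without Mt1 replicate 1, Mt2 replicate 1 or either Mt3 replicate, and 19 (17 higher and 2 lower) with total counts, where 25.4% of all genes were called, 15.1% higher and 10.3% lower.

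In the sorted cells 38 of the list were tested between F4/80+ and CD11b+, and edgeR and DESeq2 called 0 of them (median 0.16). Against Mt2, 10 of 40 were higher and 5 lower in F4/80+ cells, where 17.2% of all genes were higher and 25.2% lower. In CD11b+ cells 9 were higher and 6 lower, where 17.6% of all genes were higher and 26.3% lower. The 15 called in each population lay near the 42.3% and 43.9% of all genes called, with medians of 0.47 and 0.21 over the list and -0.12 and -0.08 over all genes. The fringe glycosyltransferases Lfng and Mfng, which tune the ligand preference of Notch, were among the higher ones in both, with Lfng at 130 to 152 CPM in F4/80+, 143 to 158 CPM in CD11b+ and 20.3 and 30.2 CPM in Mt2, and Mfng at 24.7 to 28.9, 24.0 to 40.1 and 4.52 to 4.75 CPM. Neurl1a was higher too (2.40, SE 0.38 in F4/80+ and 2.26, SE 0.37 in CD11b+ cells), as were Maml3, a coactivator, in F4/80+ (2.15, SE 0.31) and Dner in CD11b+ cells (2.65, SE 0.77). Of the 6 further targets tested, 5 were lower in each population, beside the 25.2% and 26.3% of all genes that were lower. Sox9 was at -3.45 (SE 0.39) in F4/80+ and -4.79 (SE 0.42) in CD11b+ cells, and Gata2 at -2.46 (SE 0.44) and -3.23 (SE 0.46). Heyl had 39 and 91 counts in Mt2, 2 to 6 in F4/80+ and 0 to 1 in CD11b+ libraries, and Hey2 4 and 5 in Mt2, none in F4/80+ and 0 to 1 in CD11b+ libraries.

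The genes whose course over the 13 tissue samples was most like that of a Notch gene were searched among 12560 genes, with Jag2 and Hey1 left out for their low level. The correlation of log2(CPM + 1) is a description, as the samples share the step from liver to tumor. For Jag1 they were Kctd13 (Pearson's r 0.97, Spearman's rho 0.96) and Tmem109 (0.97 and 0.94), and for Dll4 Dqx1 (0.96 and 0.93) and Gm15889 (0.94 and 0.95). Notch2 was closest to Dcaf7 (0.95 and 0.91) and Gm10156 (0.95 and 0.98), and Notch1 to Chst7 (0.91 and 0.96) and Cnnm4 (0.90 and 0.87). The other 4 had weaker partners. Notch4 paired with Slc19a1 (0.90 and 0.91) and Adarb1 (0.84 and 0.80), and Notch3 with Ttll3 (0.88 and 0.87) and Prpf39 (0.86 and 0.90). Hes1 paired with Egr1 (0.84 and 0.58) and Lama2 (0.83 and 0.93), and Dll1 with Hacd1 (0.78 and 0.66) and Frs3 (0.77 and 0.65).

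Some exons of the Notch genes lie under other annotated genes, and without strand-specific counting their reads cannot be told apart. In GENCODE M21, Dll4 shares 214 exonic bases with Gm14207 on the opposite strand, Dll1 867 with A930024N18Rik, Notch3 488 with Gm17276, and Notch1 1068 with 0610009E02Rik and 414 with Gm13568. Notch2 shares 541 bases with Gm42820 on its own strand. Jag1, Jag2, Notch4, Hes1 and Hey1 have no such overlap.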

How the data were processed

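Total RNA of 14 tissue and 6 sorted-cell libraries was sequenced after a NEBNext Ultra preparation. The deposited tables hold raw counts per gene, which per the labels and the submitters' processing notes the authors made with CASAVA, HISAT2 (2.0.5) and featureCounts (1.5.0-p3) on GRCm38 (mm10). The strand setting was not given in the sources used here. The sorted-cell table was joined to the tissue table by gene ID.

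The counts were fitted in edgeR 4.0.16 (R 4.3.3) with TMM scaling, filterByExpr and the quasi-likelihood F test. P-values were adjusted by Benjamini-Hochberg over the genes tested, and a gene was called where the adjusted p did not exceed 0.05 and the log2 fold change was 1 or more in size. SE is the fold change divided by the root of F. The tissue fit took 13 samples in 7 groups (counts of Ht replicates 1 and 3 summed), the sorted fit 6 libraries, and comparisons with Mt2 a joint fit of 19 samples in 9 groups. Depth was 16032085 to 20548370 counts per library. The procedure was tested on simulated data. Levels are TMM CPM over all 20 libraries, with Ht replicates 1 and 3 averaged, and per kilobase of the deposited gene length.

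Alternatives were DESeq2 1.42.0, total-count scaling, no filter, at least 10 counts in every library, no fold threshold, only the groups compared, Ht as 3 libraries, Mt as a single group, a replicate block and leaving out each library. After values were seen, the con numbers were exchanged in the block from con to Lt, and the joint fit was used for F4/80+ against CD11b+. The members, the pathway list and the marker lists (hepatocyte, endothelial, sinusoidal endothelial, mural and stellate, fibroblast, cholangiocyte, macrophage, Kupffer, neutrophil) were chosen with earlier results of these data known. All 10 members are named, as is every called pathway gene of a comparison, or, above 8 calls, the 4 with the largest absolute change in each direction, and for each member with a mean log2 CPM of at least 1 the 2 genes of highest Pearson's r. The hepatocyte list had 9 of its 10 genes matched. Overlapping exons and motif letters were searched in Python 3.11.15 with pandas 2.3.3.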

Additional observations from a re-analysis of the deposited data

Results flagged for a closer look

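The change of Dll4 against Mt2 differed between the sorted populations in the joint fit of all 19 samples: it was -2.06 in F4/80+ and -3.55 in CD11b+ cells on the log2 scale, a difference of 1.496 (SE 0.27, edgeR adjusted p = 0.0144), in a fit that called 0.918% of all genes between these populations. Dll4 was higher in 3 of 3 F4/80+ libraries (25 to 36 counts) than in all CD11b+ libraries (9 to 15 counts). How many of all genes part in this way was not counted. Both changes share the Mt2 libraries, so the difference is that of F4/80+ against CD11b+ cells, which in the fit of the 6 sorted libraries alone was 1.45 with an adjusted p of 0.232.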

How the results depend on the processing

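Of 766 repeats of a single gene's fold change, 709 kept their direction and their side of the threshold, 14 gained a call, 6 lost one and 37 changed sign, of which 36 were called neither before nor after. With total-count scaling the median of all genes moved to 0.40 from con to Lt, 1.28 from con to Ht and 0.55 from Mt to Ht. Signs then turned for Dll1 (0.24), Notch2 (0.22) and Notch4 (0.20) from con to Lt, for Dll1 (0.97), Notch1 (0.76) and Notch4 (1.17, called) from con to Ht, and for Dll1 (0.20), Dll4 (0.13), Notch1 (0.46) and Hey1 (0.36) from Mt to Ht. The count of Notch genes became 6 from con to Ht (6 higher, 0 lower) and 1 from Mt to Ht, and that of other pathway genes 32 (28 higher, 4 lower) and 19 (17 higher, 2 lower). Notch4 from con to Ht, near 0, was 0.000315 in DESeq2, 0.10 with no filter, 0.11 with at least 10 counts in every library and 0.0298 with only the groups compared. Hes1 from Mt to Ht was -0.0126 with only the groups compared, -0.0202 with Ht as 3 libraries and -0.00847 with Mt as a single group. From Mt to Ht the count of Notch genes was 1 with no filter and with Ht as 3 libraries, and other pathway genes numbered 12 with no fold threshold. The shares of all genes called under these settings are not given here, so the counts cannot be set against them. Between F4/80+ and CD11b+ cells 1 Notch gene was called by DESeq2, with no filter and in the joint fit, which called 2.10%, 0.939% and 0.918% of all genes. With at least 10 counts in every library, which removes genes, 2 Notch and 9 other genes were called in F4/80+ against Mt2 and 3 and 8 in CD11b+ against Mt2, where 23 other genes were called with no fold threshold. For these counts, too, the shares of all genes are not given here. Except where the construction shows it, the cause was not tested.

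Without a library, the other pathway calls ranged from 1 to 7 from con to Lt and from 0 to 6 from Mt to Ht, where Notch calls ranged from 0 to 1. The shares of all genes called without a library or with a replicate block are not given here. Fold changes that turned ranged from -0.0232 to 0.189 (Jag1), -0.42 to 0.43 (Dll1), -0.25 to 0.0649 (Notch4) and -0.53 to 1.75 (Hey1) from con to Lt, from -0.57 to 0.27 (Dll1), -0.17 to 0.14 (Notch4) and -0.35 to 1.93 (Hey1) from con to Ht, and from -0.43 to 0.0440 (Hey1) and -0.10 to 0.13 (Hes1) from Mt to Ht. For F4/80+ against CD11b+ they were -0.0454 to 0.45 (Jag1), -0.37 to 0.52 (Jag2), -0.28 to 0.51 (Notch1) and -0.18 to 0.31 (Notch2), for F4/80+ against Mt2 -0.39 to 0.72 (Hey1) and for CD11b+ against Mt2 -0.18 to 0.47 (Notch4).

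Samples were not taken as paired by replicate number. Deviations of equal numbers correlated at -0.18 for con and Lt, -0.09 for con and Ht, -0.29 to -0.17 for Mt and Ht groups, -0.12 to 0.01 between the selections, and -0.10 to 0.13 between sorted cells and Mt2, where replicate 1 of F4/80+ cells had the only value above 0.1. Between groups of 2 samples the sign turns when the numbers of a group are exchanged, so these values cannot decide whether samples are paired. A replicate block left the Notch calls at 0, 3, 0, 0, 5 and 7 in the order of the comparisons above and changed no single call, and exchanging the con numbers gave 0 Notch and 7 other pathway calls from con to Lt. Depth limits Jag2 and Hey1 in con (2 to 23 counts) and Notch3, Dll1, Dll4 (9 to 15 counts in CD11b+ libraries) and Hey1 in sorted cells.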
